A study of Homo sapiens with 8 samples.

Results

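K562 against HepG2 is a comparison of the RNA of human cancer cell lines, read by nanopore direct RNA sequencing, in which a sequenced molecule of RNA gives 1 read. K562 is a line from a patient with chronic myelogenous leukaemia that carries the BCR-ABL1 fusion gene and makes embryonic and fetal haemoglobin. HepG2 is a line from a liver tumour that keeps much of the secretory programme of hepatocytes. The comparison holds 2 K562 libraries and 3 HepG2 libraries, which are 5 of the 8 libraries of the series; the other 3 come from the B cell line GM12878. The labels name total RNA, give no treatment, genotype or time, and refer the growth of each line to its own ENCODE protocol. Members were all annotated genes: reads of all transcript models of a gene were summed, and 16079 of the 20565 annotated genes listed had at least 1 read in the 5 libraries. The label calls K562 a lymphoblastoid line, but B cell genes were hardly read there: 1 gene of the 20 on the B cell list, CD74, which guides antigen-presenting molecules, had enough reads to be tested, with 0 and 3.29 CPM in K562 libraries 1 and 2 and 240.2, 248 and 166 CPM in HepG2 libraries 1, 2 and 3. By the limits given below, all 7 tested globins and 9 of 11 tested erythroid regulators were called higher in K562. The same held for 13 of 16 tested red cell proteins, whereas ALAD was called higher in HepG2 and PRDX2 was not called. HBB, the adult beta-globin, was hardly read in K562. ALB, AFP and SERPINA1, made by liver, were at 0 in both K562 libraries and high in all 3 HepG2 libraries. Each line stands for the tumour of 1 patient, and whether its libraries are separate cultures is not in the labels; the p-values reflect only how far these libraries spread.

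Red cell precursors are driven by GATA1, KLF1 and their partners, which switch on the globin genes, the enzymes of heme synthesis and the proteins of the red cell membrane. Hepatocytes are driven by HNF4A, the FOXA and the C/EBP factors, and export albumin, protease inhibitors, lipoproteins, complement and clotting factors into blood. In these bulk libraries fewer cells that make an RNA and less of that RNA per cell cannot be told apart.

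Levels are given as CPM, reads scaled to a total of 1000000 reads of annotated genes with TMM factors, always in the order K562 libraries 1 and 2, then HepG2 libraries 1, 2 and 3. The K562 libraries held 141832 and 311331 reads in annotated genes and the HepG2 libraries 457813, 246453 and 343542. A count of 0 over a line allows up to 3 reads, which is 6.61 CPM in K562 and 3.31 CPM in HepG2, for counting error only. A gene was called when its adjusted p was below 0.05 (edgeR's quasi-likelihood test, two-sided, Benjamini-Hochberg adjusted over all genes tested) and its log2 change was at least 1 in size; log2 changes are K562 over HepG2. Of 5029 genes tested, 2364 were called, or 47% of them: 1024 were higher in K562 (20.4%) and 1340 higher in HepG2 (26.6%). That split rests on the scaling: with library totals alone 1302 genes were higher in K562 and 1158 in HepG2, and the median of all tested genes moved from -0.03 to 0.21. The genes called higher in HepG2 held 39.3%, 39.5% and 38.2% of the reads of the HepG2 libraries, and 4.85% and 5.49% of those of the K562 libraries. The genes called higher in K562 held 25.2% and 22.8% of the K562 reads and 4.77%, 4.72% and 4.92% of the HepG2 reads.

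The K562 libraries were less alike than any pair of HepG2 libraries. Their log2(CPM + 1) values correlated at 0.895 across genes, against 0.926 to 0.946 for pairs of HepG2 libraries, and genes are not independent replicates. K562 library 1 was the shallowest of the 5, and counting error lowers such a correlation. Both K562 libraries were at least 2-fold away from the HepG2 mean in the called direction for 1814 of the 2364 called genes (76.7%). In fits with either K562 library alone, where the lone library is assumed to vary like the HepG2 libraries, 1528 genes (64.6%) were called the same way both times, 457 higher in K562 and 1071 higher in HepG2. Below, "called with either K562 library" means called the same way in both of those fits. The 5 libraries did not overlap in 2334 of the called genes, and in 1615 (32.1%) and 1791 (35.6%) of all tested genes in the direction of K562 and of HepG2.

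The widest contrasts of each direction were between levels that were high in every library of one line and at or near 0 in the other. The 15 genes that led in K562 were HBG2, HBG1, HBE1, HBA1, HBZ and HBA2 (globins), AC104389.5 (an unnamed gene model that overlaps the gamma-globin genes), GSTP1, IFITM1, PRAME, LDHB, VIM, GAGE12G, GAGE12F and GYPC. The 15 that led in HepG2 were ALB, SERPINA1, AFP, AHSG, APOA1, A2M, TF, APOA2, AMBP, APOH, PGC, FABP1, RBP4, IGF2 and AGT, and all 15 had 0 reads in both K562 libraries. IGF2, a fetal growth factor, was the 1 of these 15 whose call was lost when a library was left out: it stood at 3474, 3692 and 1264 CPM in HepG2, and was not called with K562 library 1 alone (adjusted p = 0.0688). Of all called genes, 334 of those higher in HepG2 had 0 K562 reads and 119 of those higher in K562 had 0 HepG2 reads.

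**Figure D1:**
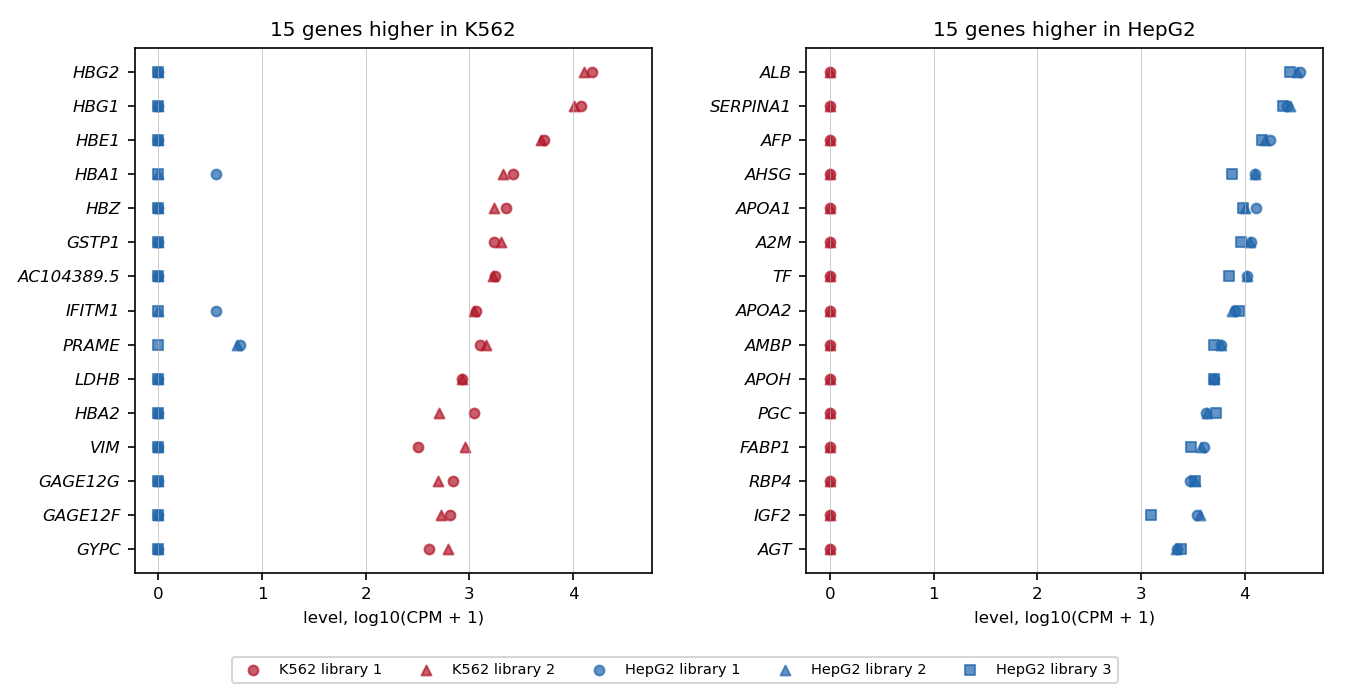
Level of the 15 genes with the largest change in each direction, as log10(CPM + 1) on the horizontal axis, in each of the 2 K562 libraries (red) and the 3 HepG2 libraries (blue). The 15 genes on the right sit at 0 in both K562 libraries, and HBG2 sits at 15080.4 and 12763 CPM in the K562 libraries and at 0 in all 3 HepG2 libraries.

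Bases of the promoters of 4 genes that were on in one line and at 0 in the other are printed so that their base composition can be seen beside the levels: GSTP1 and GATA1, on in K562, and ALB and AFP, on in HepG2. Each run is the 250 bases before the gene's start, from RefSeq on GRCh38.p14, plus strand, 5′ to 3′. Capitals mark every match, on either strand, to AGATAA (the core that GATA factors bind), CCAAT (bound by the factor NF-Y), TATAAA (the TATA box), GTTAAT (the start of a site of the HNF1 factors), GGGCGG (bound by SP factors) and CACCC (bound by KLF factors).
GSTP1, chr11:67583562-67583811: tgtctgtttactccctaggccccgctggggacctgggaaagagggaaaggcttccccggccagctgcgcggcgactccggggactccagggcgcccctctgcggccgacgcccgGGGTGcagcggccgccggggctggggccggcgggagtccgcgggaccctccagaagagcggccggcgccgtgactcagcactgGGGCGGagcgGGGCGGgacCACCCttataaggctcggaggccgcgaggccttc
GATA1, chrX:48786340-48786589: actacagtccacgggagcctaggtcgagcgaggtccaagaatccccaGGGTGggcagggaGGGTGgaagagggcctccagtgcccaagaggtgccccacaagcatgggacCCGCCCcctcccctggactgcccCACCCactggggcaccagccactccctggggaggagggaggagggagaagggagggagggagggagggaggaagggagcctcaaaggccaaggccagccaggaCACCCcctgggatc
ALB, chr4:73404037-73404286: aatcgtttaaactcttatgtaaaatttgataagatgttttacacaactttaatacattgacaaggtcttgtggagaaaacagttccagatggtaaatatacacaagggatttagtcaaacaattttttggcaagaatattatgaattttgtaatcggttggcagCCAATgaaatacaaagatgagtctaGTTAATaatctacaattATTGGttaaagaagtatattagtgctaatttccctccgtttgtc
AFP, chr4:73435971-73436220: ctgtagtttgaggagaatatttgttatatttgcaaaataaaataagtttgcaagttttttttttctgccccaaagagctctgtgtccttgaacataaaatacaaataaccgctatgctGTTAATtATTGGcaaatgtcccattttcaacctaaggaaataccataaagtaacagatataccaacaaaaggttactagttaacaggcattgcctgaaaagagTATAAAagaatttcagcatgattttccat

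The 2 liver promoters were poor in G and C (ALB 30% and AFP 31.6%). Those of the 2 genes on in K562 held 74.8% (GSTP1) and 68.4% (GATA1). Promoters of tested genes held 64.8% and all RefSeq promoters 56.9%, so the K562 pair lay nearer to the tested genes than the liver pair. These 4 chosen genes cannot show a difference between the lines. CG dinucleotides, the bases on which DNA is methylated, numbered 28 in GSTP1, 4 in GATA1, 3 in ALB and 1 in AFP. The median was 22 over the 4045 promoters of tested genes and 11 over all 27305 RefSeq promoters, in the same 250 bases before the start. GTTAAT lay 61 bases before the start of ALB and 132 bases before that of AFP. In windows of that same length 6.22% of all promoters and 3.16% of those of tested genes hold that word. TATAAA lay 29 bases before the start of AFP, and 11.1% and 5.39% hold it. CCAAT was found in ALB, 86 bases before the start on the plus strand and 44 bases on the minus strand, in AFP, 125 bases before the start on the minus strand, and in 33% and 36.9%. GGGCGG was found 53 and 43 bases before the start of GSTP1 and 140 bases before that of GATA1 (42.3% of all promoters and 69.9% of those of tested genes), CACCC in both (53.7% and 57.6%), and AGATAA, which 9.37% and 3.78% hold, in none of the 4 windows. These matches are a description of the letters; methylation and factor binding were not measured.

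All 7 tested globin genes, of 10 listed, passed the filter on reads through K562 and were called higher there, and all 7 were called with either K562 library; the median log2 change was 12.08, or 10.58 with genes at 0 set to their bound, against -0.03 over all tested genes. HBG2 (chr11, gamma-globin, the beta-like chain of fetal haemoglobin) stood at 15080.4 and 12763 CPM in K562 and at 0 in the 3 HepG2 libraries, at least 4212-fold higher (adjusted p = 2.85e-20). HBE1, the beta-like chain of the embryo, stood at 5208 and 4932 CPM, and HBZ, the embryonic alpha-like chain, at 2269 and 1712 CPM, both at 0 in HepG2. HBA1, an alpha chain of fetal and adult haemoglobin, stood at 2644 and 2126 CPM against 2.58, 0 and 0 CPM. The 3 other listed members had too few reads to be tested: HBB, the adult beta chain, had 1 and 0 reads in the K562 libraries, HBD, the delta chain, 9 and 2, and HBM 0 and 0. K562 library 1 was the higher of the pair in 6 of the 7 globins, with HBA2 the widest at 1111 and 509 CPM. HBG1 with HBG2, and HBA1 with HBA2, are near-identical copies, so the division of reads within each pair is uncertain.

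Of 11 tested erythroid regulators 9 were called higher in K562 and none higher in HepG2; 5 were called with either K562 library. GATA1, the master regulator of red cell genes, stood at 274 and 342 CPM in K562 and 0 in HepG2 (at least 93.2-fold, adjusted p = 2.05e-11). KLF1, which drives globin genes through CACCC boxes, stood at 281 and 266 CPM and 0 in HepG2. LYL1, a helix-loop-helix factor of blood progenitors, stood at 308 and 191 CPM against 0, 9.36 and 6.52 CPM. NFE2, a leucine zipper factor of red cells and platelets, was detected in both lines, at 274 and 312 against 15.5, 14 and 29.3 CPM, with a log2 change of 3.86 ± 0.38 (SE). These 4 were high in both K562 libraries. Of the 16 regulators listed, 15 had a read in each K562 library, and 7, 6 and 7 in HepG2 libraries 1, 2 and 3. The filter on reads thus left less room for a call higher in HepG2. Among all tested genes 20.4% were called higher in K562. TAL1, a close relative of LYL1, stood at 87 and 59.1 CPM against 0, 0 and 0 CPM, and with K562 library 1 alone TAL1, GFI1B, MYB, HEMGN and CBFA2T3 had too few reads to be tested.

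Of 16 tested red cell proteins 13 were called higher in K562 and 1, ALAD, higher in HepG2; 5 were called with either K562 library. Of the 27 listed, 24 and 26 had a read in K562 libraries 1 and 2, and 9, 8 and 9 in HepG2 libraries 1, 2 and 3. The filter on reads thus left less room for a call higher in HepG2. Among all tested genes 20.4% were called higher in K562. GYPC, a glycophorin that ties the membrane to the skeleton, stood at 408 and 618 CPM in K562 and 0 in HepG2, at least 155-fold higher. RHAG, the membrane partner of the Rh proteins, stood at 234 and 283 CPM and 0 in HepG2. BLVRB, a reductase abundant in red cells, was called at 910.3 and 1446 against 95.6, 112 and 108 CPM (log2 change 3.50 ± 0.27), while BLVRA, the enzyme that reduces biliverdin in most adult cells, was at 53.5 and 115 against 67.2, 88.9 and 68.4 CPM and was not called. PRDX2, a peroxidase known for its abundance in red cells, was not called, at 696 and 651 against 769.8, 838 and 776 CPM, with a 95% interval of its log2 change of -0.71 to 0.23. The calls of GYPB, GYPE, ANK1, SPTB and KEL were not tested with K562 library 1 alone.

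In heme synthesis 5 of 8 tested genes were called higher in K562 and 2 higher in HepG2, and 2 were called with either K562 library, UROD among them. Over all tested genes the shares were 20.4% and 26.6%. ALAS2, the red cell form of the first enzyme, had 80.3 and 75.6 CPM in K562 and 0 in HepG2, and too few reads to be tested with K562 library 1 alone. ALAS1, the form of all other tissues, had 33.5 and 49.3 against 59.4, 46.8 and 71.7 CPM and was not called. UROD, which trims side chains of the porphyrin ring, stood at 870.1 and 687 against 108, 122 and 134 CPM (log2 change 2.67 ± 0.27). ALAD and UROS, enzymes of intermediate steps, went the other way at low levels: ALAD stood at 13.4 and 6.57 against 38.7, 37.4 and 39.1 CPM and UROS at 33.5 and 32.9 against 62, 98.3 and 65.2 CPM. Both of those calls were lost with K562 library 1 alone, with edgeR's adjusted p = 0.151 and 0.11, and that of UROS also without K562 library 1 (adjusted p = 0.0525) or any 1 of the HepG2 libraries (adjusted p = 0.0554, 0.131 and 0.0539); ALAD could not be tested without HepG2 library 1 or 3.

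Of 16 tested iron genes, 2 were called higher in K562 and 6 in HepG2, of which 1 and 6 were called with either K562 library. The shares over all tested genes were 20.4% and 26.6%. TFRC, the receptor that takes up transferrin iron, stood at 228 and 141 against 54.2, 103 and 61.9 CPM, highest in K562 library 1. FTL, the light chain of the iron store ferritin, stood at 5756 and 6174 against 13812, 14241 and 17035 CPM, a log2 change of -1.33 ± 0.18, low in both K562 libraries. FTH1, the heavy chain, lay at 2811 and 4045 against 6148, 6196 and 6494 CPM and was not called over the 5 libraries, but was called higher in HepG2 with K562 library 1 alone (log2 change -1.30, adjusted p = 8.42e-07). TF (transferrin), HP and HPX, which carry iron, free haemoglobin and heme in plasma, had 0 reads in both K562 libraries, and TF stood at 10668, 10637 and 7015 CPM in HepG2. SLC25A37, which brings iron into mitochondria, stood at 46.9 and 75.6 against 20.7, 14 and 13 CPM, a call lost with K562 library 1 alone (adjusted p = 0.213).

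All 14 tested cancer-testis genes, genes that are normally read in germ cells and reappear in tumours, were called higher in K562, 9 of them with either K562 library. PRAME, the abundant member on chromosome 22, stood at 1272 and 1439 CPM in K562 against 5.17, 4.68 and 0 CPM in HepG2 (log2 change 8.50 ± 0.42, adjusted p = 1.13e-15). GAGE12F stood at 649 and 526 CPM and GAGE1 at 549 and 319 CPM, both at 0 in HepG2 and both high in each K562 library. The GAGE copies on chromosome X are near-identical, so reads cannot be divided among them with certainty, and MAGEA3 and MAGEA6 share sequence in the same way. K562 library 1 was the higher of the pair in 11 of the 14. All 14 passed the filter on reads through K562, since no more than 1 member of the list had a read in any HepG2 library. The filter thus left little room for a call in the other direction. Of all tested genes 20.4% were called higher in K562.

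Secreted liver proteins ran the other way. Of 25 tested plasma carriers and acute phase proteins all 25 were called higher in HepG2, 24 of them with either K562 library; the median log2 change was -10.87, or -7.02 with genes at 0 set to their bound. ALB, the main protein of plasma, stood at 33939, 31786 and 27746 CPM in HepG2 and 0 in K562, at least 4712-fold higher (adjusted p = 2.85e-20). SERPINA1, the inhibitor of neutrophil elastase, stood at 25590.4, 27485 and 23731 CPM, and AFP, the fetal albumin that is used as a serum marker of liver cancer, at 17751, 15865 and 14748 CPM, both at 0 in K562. AHSG, a carrier of calcium phosphate, stood at 12745, 12757 and 7628 CPM, lowest in HepG2 library 3. All 25 passed the filter on reads through HepG2, since 0 and 2 members of the list had a read in K562 libraries 1 and 2. The filter thus left little room for a call in the other direction. Of all tested genes 26.6% were called higher in HepG2. The ITIH3 call was lost with K562 library 1 alone (adjusted p = 0.0538).

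Of 16 tested apolipoprotein and lipoprotein genes 15 were called higher in HepG2, 14 with either K562 library. Members of this list with a read numbered 4 and 8 in K562 libraries 1 and 2 and at least 15 in each HepG2 library. For the clotting list below they numbered 3 and 5 against at least 20, and for complement 5 and 9 against 23. The filter on reads thus left less room for calls higher in K562. Among all tested genes 26.6% were called higher in HepG2 and 20.4% in K562. APOA1, the main protein of HDL, stood at 12861, 10123 and 9694 CPM and APOA2, its partner there, at 8088, 7507 and 8912 CPM, with 0 reads in K562. APOE, which brings lipoproteins to the LDL receptor, was detected in both lines, at 53.5 and 138 against 3665, 2682 and 3255 CPM, a log2 change of -4.93 ± 0.31. Of 15 tested clotting and fibrinolysis genes 13 were called higher in HepG2, all 13 with either K562 library. FGG, a chain of fibrinogen, stood at 1121, 997 and 1323 CPM and 0 in K562, and F2, prothrombin, at 958, 1076 and 772 CPM against 0 and 3.29 CPM. Of 14 tested complement genes 11 were called higher in HepG2, all with either K562 library, among them C3, the central component, at 2921, 2686 and 2154 CPM against 0 and 3.29 CPM in K562. The exception was CD55, a membrane protein that shields cells from complement, at 66.9 and 46 against 12.9, 4.68 and 6.52 CPM, called higher in K562 with either library.

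Of 9 tested hepatocyte transcription factors 8 were called higher in HepG2, all 8 with either K562 library. Of the 20 factors listed, 3 and 4 had a read in K562 libraries 1 and 2, and 18, 18 and 16 in HepG2 libraries 1, 2 and 3. The filter on reads thus left little room for a call in the other direction. Among all tested genes 26.6% were called higher in HepG2. HNF4A, the nuclear receptor that keeps hepatocyte identity, stood at 127, 173 and 121 CPM. CEBPA, a leucine zipper factor of liver and granulocytes, stood at 362, 407 and 270.5 CPM, and neither had a read in K562. NR0B2, which represses bile acid synthesis, stood at 315, 337 and 306 CPM and 0 in K562. CEBPB, the inducible relative of CEBPA, was the member not called, at 60.2 and 164 against 186, 149.8 and 101 CPM, and the K562 libraries disagreed on it by 2.73 times. With K562 library 1 alone it was called higher in HepG2 (adjusted p = 0.0186). GATA4, which acts in endoderm, stood at 67.2, 65.5 and 101 CPM and 0 in K562, the reverse of its blood relative GATA1.

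**Figure D2:**
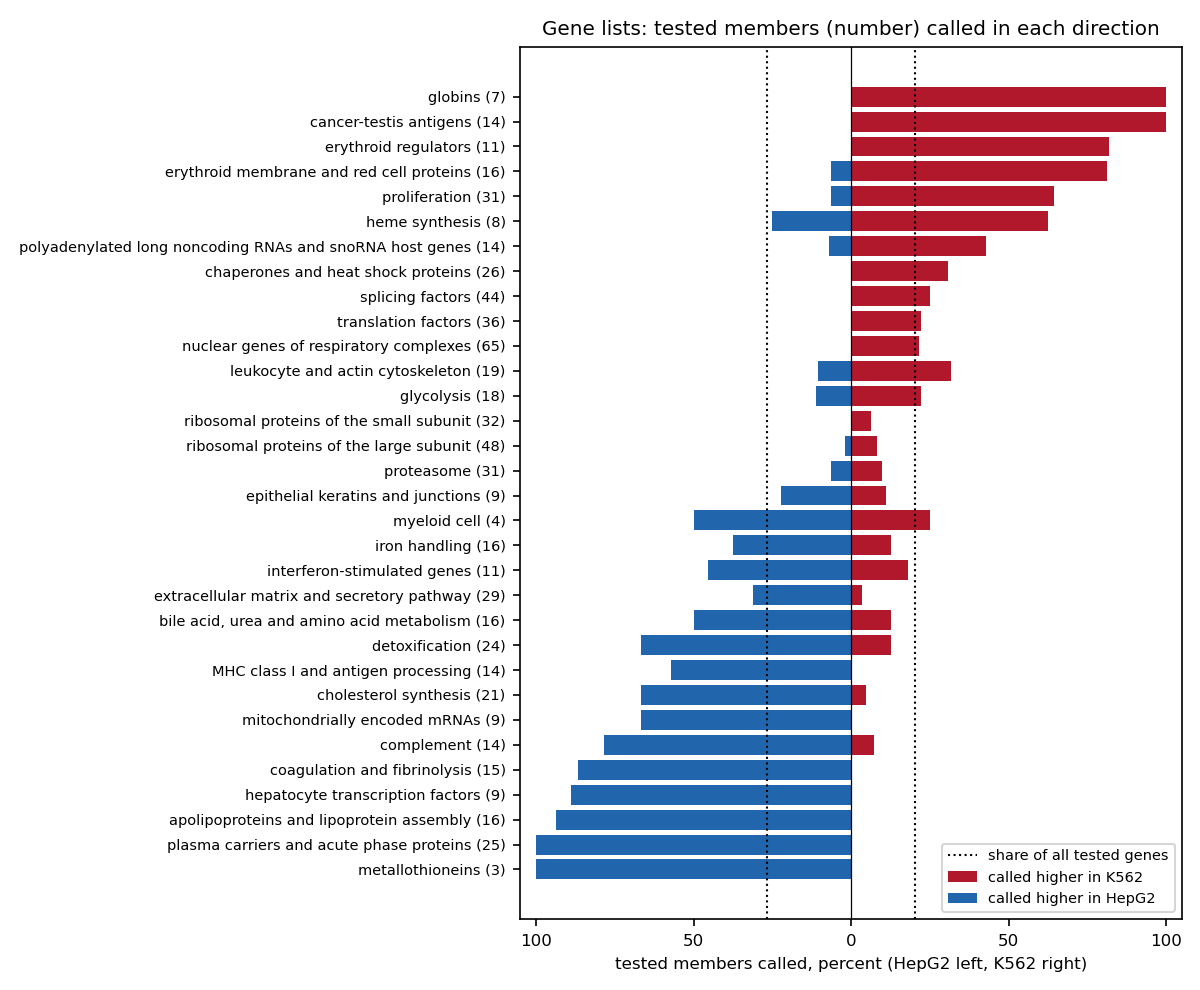
Percent of the tested members of each gene list shown that were called higher in K562 (red, right) or in HepG2 (blue, left), with the number tested in brackets and dotted lines at the shares of all 5029 tested genes, 20.4% and 26.6%. Globins and cancer-testis antigens reach 100% in K562 and plasma carriers 100% in HepG2; a member can pass the filter on reads through the line where it is high.

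In detoxification 16 of 24 tested genes were called higher in HepG2, all 16 with either K562 library, and 3 higher in K562, 2 of them with either. AKR1C1, a reductase of steroids and carbonyls with near-identical relatives, stood at 174 and 256 against 7122, 7591 and 7674 CPM, and AKR1B1, aldose reductase, at 13.4 and 32.9 against 1441, 1521 and 1978 CPM; both were low in both K562 libraries. These counts stand beside 26.6% of all tested genes called higher in HepG2 and 20.4% in K562. The glutathione transferases exchanged members. GSTP1 (chr11), the pi form, stood at 1720.2 and 2037 CPM in K562 and 0 in HepG2, at least 568-fold higher, whereas GSTA1, the alpha form of liver, stood at 344, 369.7 and 469 CPM and 0 in K562, at least 59.6-fold lower in K562. GSTO1, the omega form, was not called, at 535 and 779 against 442, 463 and 589.8 CPM. All 3 tested metallothioneins, small proteins that bind zinc and copper, were called higher in HepG2 with either K562 library, MT2A at 20.1 and 75.6 against 488, 384 and 547 CPM.

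In glycolysis 4 of 18 tested genes were called higher in K562 (3 with either library) and 2 higher in HepG2 (both with either), beside backgrounds of 20.4% and 26.6%. LDHB, the lactate dehydrogenase subunit of heart and red cells, stood at 843 and 854 CPM in K562 and 0 in HepG2, at least 257-fold higher. LDHA, the subunit of muscle and liver, lay at 716 and 1045 against 1201, 1086 and 981 CPM and was not called, with a log2 interval of -0.77 to 0.18. HK1, the hexokinase of red cells and brain, stood at 442 and 631 against 2.58, 0 and 3.26 CPM. PFKP, the platelet form of phosphofructokinase, stood at 80.3 and 92 against 2.58, 0 and 0 CPM but was not tested with K562 library 1 alone, while the liver form PFKL was at 80.3 and 154 against 163, 229 and 215 CPM and was not called over the 5 libraries. With K562 library 1 alone PFKL was called higher in HepG2 (log2 change -1.44, adjusted p = 0.00563). PKM, pyruvate kinase of most tissues, was higher in HepG2 at 408 and 526 against 1124, 1357 and 879.8 CPM. Outside glycolysis, MDH2, the mitochondrial malate dehydrogenase, was higher in K562 (1212 and 1393 against 431, 445 and 508 CPM), and IDH1, the cytosolic isocitrate dehydrogenase, higher in HepG2 (26.8 and 118 against 579, 454 and 909 CPM). ENO1 and GAPDH, 2 abundant glycolytic enzymes, were not called: ENO1 lay at 4076 and 4101 against 3012, 3299 and 2128 CPM and GAPDH at 4049.5 and 3148 against 6344, 6196 and 4288 CPM.

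Of 21 tested cholesterol genes 14 were called higher in HepG2 and 1 higher in K562, with 9 and 1 of them called with either K562 library; the median log2 change was -1.21. Over all tested genes 26.6% were called higher in HepG2 and 20.4% in K562. MVD, which makes isopentenyl diphosphate, stood at 100.4 and 197 against 509, 622 and 443 CPM. INSIG1, which holds back the sterol sensor, was the member called higher in K562, at 114 and 177 CPM and 0 in HepG2. Whether its HepG2 reads were assigned elsewhere was not tested. The K562 libraries were unequal in this pathway, with library 2 higher in 16 of the 21, and FDFT1, squalene synthase, lay at 201 and 693 against 615, 604 and 655 CPM, so that library 1 was below and library 2 above all 3 HepG2 libraries. The call of FDPS (328 and 444 against 834, 847 and 886 CPM) fell short of the 2-fold limit without K562 library 1, at a log2 change of -0.96.

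Of 16 tested genes of bile acid, urea and amino acid metabolism 8 were called higher in HepG2 and 2 in K562, of which 7 and 1 were called with either K562 library. CYP27A1, a bile acid hydroxylase, stood at 313, 412 and 323 CPM and HPD and HGD, successive enzymes of tyrosine breakdown, at 333, 290.2 and 202 and at 183, 220.0 and 196 CPM, all 3 at 0 in K562. FAH, the last enzyme of tyrosine breakdown, went the other way, at 161 and 233 against 80.1, 79.6 and 52.1 CPM. GLUL, glutamine synthetase, was not called, at 489 and 352 against 589, 398 and 583 CPM. The counts of this list stand beside 26.6% of all tested genes called higher in HepG2 and 20.4% in K562.

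Proliferation genes were read more in K562: of 31 tested 20 were called higher there (15 with either K562 library) and 2 higher in HepG2, with a median log2 change of 1.36. Among all tested genes 20.4% were called higher in K562 and 26.6% in HepG2, with a median of -0.03. MCM7, a part of the helicase that opens replication origins, stood at 797 and 693 against 124, 168 and 111 CPM. UBE2S, which extends ubiquitin chains for the anaphase-promoting complex, stood at 723 and 582 against 114, 93.6 and 61.9 CPM. TUBA1B, an alpha-tubulin, stood at 2497 and 1968 against 599, 505 and 544 CPM, high in both K562 libraries. The D cyclins, which start the cell cycle, were exchanged between the lines. CCND3 stood at 248 and 181 against 10.3, 4.68 and 13 CPM, and CCND1 at 13.4 and 0 against 106, 117 and 88 CPM. UBE2C, the enzyme that starts the chains UBE2S extends, had 0 reads in both K562 libraries and 64.6, 46.8 and 71.7 CPM in HepG2. Whether K562 reads of UBE2C were assigned elsewhere was not tested. The genes of 9p21 that K562 is known to have lost had 0 reads in K562. CDKN2A, CDKN2B and MTAP had only 8, 5 and 8 reads in the 3 HepG2 libraries together, too few to be tested.

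Of 14 tested genes of MHC class I and antigen processing 8 were called higher in HepG2, 7 with either K562 library, and none higher in K562. The shares over all tested genes were 26.6% and 20.4%. HLA-C, which presents peptides at the cell surface, stood at 0 and 29.6 against 496, 543 and 378 CPM. The HLA genes share sequence, so reads could be exchanged among them. PSME1, a cap of the proteasome that interferon induces, stood at 60.2 and 138 against 783, 739 and 674 CPM, while CALR, a chaperone of class I assembly and of many other proteins, was not called at 448 and 1058 against 852, 847 and 727 CPM. K562 library 2 was the higher of the pair in 12 of the 14, and the call of HLA-E was lost without K562 library 1 (adjusted p = 0.0854) or HepG2 library 1 (adjusted p = 0.0669). Of the interferon-induced membrane proteins, IFITM1 stood at 1145 and 1107 against 2.58, 0 and 0 CPM, and IFITM3, its neighbour and close relative, lay at 127 and 207 against 243, 192 and 205 CPM and was not called.

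Several genes named for immune cells were high in the liver line. LYZ, lysozyme, a marker of myeloid cells, stood at 0 and 3.29 against 1699.7, 1367 and 1629 CPM. CD7, a surface protein of T and NK cells, stood at 0 and 6.57 against 703, 721 and 541 CPM, and IL32, a cytokine of T and NK cells and of epithelia, at 599, 426 and 449.7 CPM with 0 reads in K562. These 3 calls were made with either K562 library. Of the 17 T and NK cell genes listed only these 2 had enough reads to be tested, and CST3, cystatin C, which most cells secrete, was the other myeloid marker called higher in HepG2, at 141 and 154 against 4332, 4493 and 4435 CPM. SRGN, a proteoglycan of blood cell granules, went the other way at 80.3 and 125 CPM and 0 in HepG2, with too few reads to be tested with K562 library 1 alone. GP1BB, the only platelet marker with enough reads, stood at 134 and 42.7 CPM and 0 in HepG2, and its reads overlap those of SEPT5.

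Of 19 tested genes of leukocytes and the actin cytoskeleton 6 were called higher in K562, 4 with either library, and 2 higher in HepG2, 1 with either K562 library. Over all tested genes 20.4% were called higher in K562 and 26.6% in HepG2. VIM, the intermediate filament of blood and connective tissue cells, stood at 321 and 907 CPM in K562 and 0 in HepG2, at least 186-fold higher, with library 2 well above library 1. KRT8, an intermediate filament of liver and other epithelia, was present in K562 as well, at 442 and 427 against 1294, 1423 and 1447 CPM. TMSB4X, which holds actin monomers, stood at 910.3 and 1048 against 7.75, 23.4 and 0 CPM, whereas its relative TMSB10 lay at 395 and 585 against 529.5, 482 and 437 CPM and was not called. ACTB, the main actin of most cells, was the same in both lines within 2-fold: 2456 and 2021 against 2196, 2312 and 2189.7 CPM, a log2 change of 0.00 with a 95% interval of -0.40 to 0.41. FN1, fibronectin, was called higher in HepG2 at 13.4 and 13.1 against 858, 828 and 759 CPM, P4HB, which forms disulphide bonds and hydroxylates collagen, at 295 and 631 against 2291, 2228 and 2284 CPM, and TIMP1, an inhibitor of matrix proteases, higher in K562 at 361 and 595 against 101, 79.6 and 94.5 CPM; all 3 were called with either K562 library.

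Few genes of the ribosome were called, a smaller share than the 20.4% (K562) and 26.6% (HepG2) of all tested genes. Of 32 tested ribosomal proteins of the small subunit 2 were called higher in K562 and none higher in HepG2, with a median log2 change of 0.42, and of 48 of the large subunit 4 and 1, with a median of 0.39. With library totals 8 of the large subunit were called higher in K562, with K562 library 1 alone 1, and without HepG2 library 3 2. Of the small subunit none was with K562 library 1 alone or without HepG2 library 2. RPLP0, of the ribosomal stalk, lay at 5843 and 8442 against 5032, 5223 and 5129 CPM and was not called. RPL37A was the exception, at 2845 and 4127 against 8281, 6795 and 7579 CPM, below HepG2 in both K562 libraries, although without K562 library 1 its log2 change was -0.89, short of 2-fold. RPL14, at 3936 and 4308 against 2165, 1937 and 1665 CPM, RPS18, at 5582 and 7610.2 against 3681, 3149.6 and 2845 CPM, and RPS28, at 596 and 1239 against 506, 388 and 476 CPM, passed the 2-fold limit narrowly and did not pass it with K562 library 1 alone (log2 changes of 0.90, 0.65 and 0.24). RPS18 also missed it without HepG2 library 2 or 3, RPS28 without HepG2 library 2 and RPL14 without HepG2 library 3 (log2 changes of 0.95, 0.94, 0.86 and 0.99). Of 36 translation factors 8 were called higher in K562, 5 with either library. That share of the translation factors is close to the 20.4% of all tested genes. EEF1A2, the elongation factor of muscle and brain, stood at 100.4 and 128 against 7.75, 9.36 and 3.26 CPM. EEF1A1, its form in most cells, was not called at 8086 and 11373 against 12753, 12579.5 and 11564 CPM.

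Of 9 tested mRNAs of mitochondrial DNA 6 were called higher in HepG2, 4 with either K562 library, and none higher in K562, with a median log2 change of -1.84. Over all tested genes 26.6% were called higher in HepG2. MT-CO1, a core subunit of cytochrome oxidase, stood at 228 and 434 against 1204, 1451 and 1019.9 CPM. MT-ND1, of complex I, stood at 26.8 and 39.4 against 418, 445 and 241 CPM. All 9 were higher in K562 library 2 than in library 1, by a median log2 of 1.38; mitochondrial reads made up 0.184% and 0.41% of the K562 libraries and 0.991%, 0.995% and 0.738% of the HepG2 libraries. MT-CYB, of complex III, stood at 33.5 and 168 against 935, 894 and 339 CPM, and its call was lost without K562 library 1 and without K562 library 2 (adjusted p = 0.0913 and 0.0502); MT-ND2 was lost without K562 library 1 or HepG2 library 1 (adjusted p = 0.0648 and 0.0646). Of 65 nuclear genes of the same complexes 14 were called higher in K562, 7 with either library, and none higher in HepG2. The share in K562 is near the 20.4% of all tested genes, and the count was 9 with K562 library 1 alone. UQCRH, the hinge protein of complex III, stood at 1513 and 1098 against 377, 346 and 420.3 CPM, and NDUFS5, of complex I, at 1084 and 762 against 279, 290.2 and 362 CPM, high in both K562 libraries. Whether the difference between the K562 libraries in mitochondrial reads has a part in the mitochondrial calls was not tested.

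Of 26 tested chaperones 8 were called higher in K562, 3 with either library, and none in HepG2. Without K562 library 1 the counts were 4 and 5, and with library totals in place of TMM 13 and 0. The counts of this list and of those below stand beside 20.4% (K562) and 26.6% (HepG2) of all tested genes. HSPB1, a small heat shock protein, stood at 729.6 and 526 against 98.2, 88.9 and 52.1 CPM. CCT8, of the chaperonin that folds actin and tubulin, stood at 716 and 743 against 155, 136 and 218 CPM. Of 44 splicing factors 11 were called higher in K562, 5 with either library, and none in HepG2, a share in K562 close to the 20.4% of all tested genes. Among them was SNRPD2, a core protein of the spliceosome, at 917 and 805 against 341, 295 and 309.6 CPM. Of 31 proteasome genes 3 were called higher in K562 and 2 higher in HepG2, of which 1 and 2 were called with either K562 library. The count higher in K562 was 10 with library totals, 0 without HepG2 library 2 and 5 without HepG2 library 3. PSMB5, the subunit that bortezomib binds, stood at 274 and 306 against 992, 1062 and 1144 CPM, low in both K562 libraries. Of 14 long noncoding RNAs and snoRNA hosts 6 were called higher in K562, 5 with either library, and 1 in HepG2. PVT1, the neighbour of MYC, stood at 154 and 95.3 against 5.17, 9.36 and 13 CPM, CYTOR at 127 and 237 against 10.3, 14 and 16.3 CPM, and SNHG7 was the 1 higher in HepG2, at 26.8 and 52.6 against 251, 225 and 137 CPM.

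The calls were spread unevenly over the chromosomes, an arrangement described after its values were seen and given with no test. Both lines have altered chromosome numbers, and DNA was not measured, so the part of copy number in these values was not tested. On chromosome 14, 81 of 162 tested genes (50%) were called higher in HepG2 and 11 (6.79%) higher in K562, with a median log2 change of -1.15, and on chromosome 20, 97 of 190 (51.1%) and 12 (6.32%), with a median of -1.15, beside 26.6% and 20.4% and a median of -0.03 over all tested genes. Chromosome 2 followed, with 38.9% against 9.94% of 342 genes and a median of -0.70. The genes of X went the other way, with 40.5% of 168 called higher in K562 and 20.8% higher in HepG2 and a median of 0.67, and so did those of chromosome 7, with 32.9% and 16.9% of 255 and a median of 0.54. Both K562 libraries showed this: on log2(CPM + 10) against the HepG2 mean their medians were -1.06 and -0.98 on chromosome 14, -1.05 and -1.10 on chromosome 20, -0.53 and -0.67 on chromosome 2, 0.47 and 0.48 on chromosome 7, and 0.48 and 0.65 on X. With K562 library 1 alone in the fit the median of X was 0.20. The shift was uneven along most of these chromosomes. Over stretches of 25 megabases with enough tested genes the median log2 change ran from -1.87 to -0.20 on chromosome 14. It ran from -1.48 to -0.96 on chromosome 20, from -1.31 to 0.64 on 2, from 0.17 to 1.02 on 7 and from 0.15 to 1.26 on X. Genes outside all lists had the same medians or wider ones on chromosomes 14 and 20, -1.27 and -1.23. Their medians were -0.78 on chromosome 2 and 0.53 on chromosome 7, and on X the median was smaller, 0.50. With library totals in place of TMM the medians of chromosomes 14, 20 and 2 were -0.91, -0.90 and -0.46, and that of X was 0.91.

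**Figure D3:**
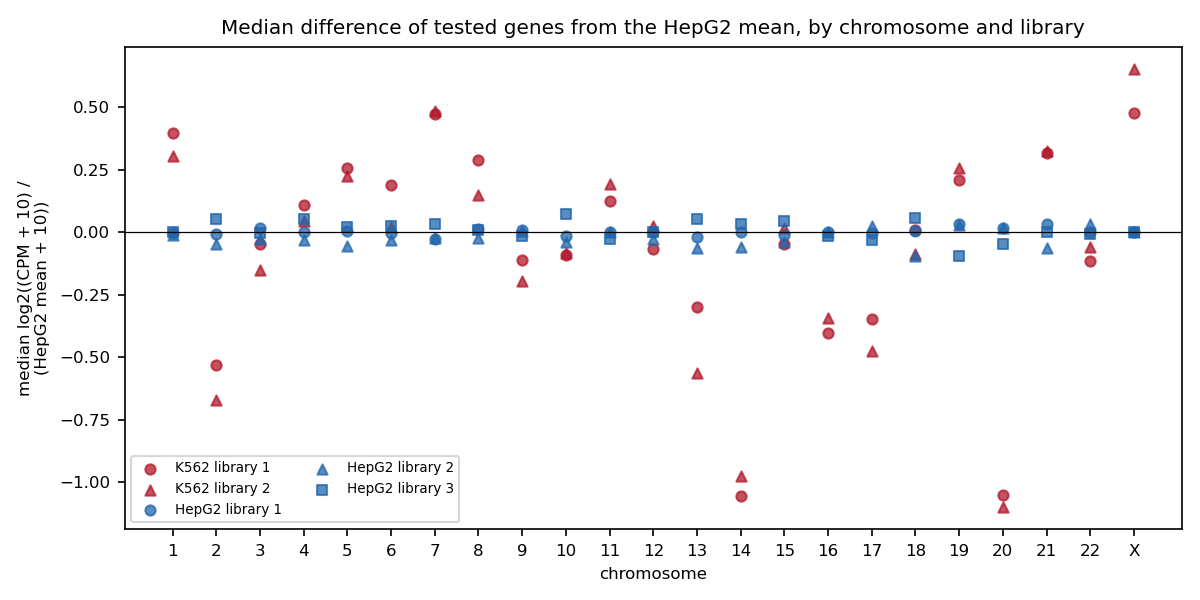
Median over the tested genes of each chromosome (horizontal axis) of log2((CPM + 10)/(HepG2 mean CPM + 10)) on the vertical axis, in each of the 2 K562 libraries (red) and the 3 HepG2 libraries (blue). Both K562 libraries lie lowest on chromosomes 14 and 20 (-1.06 and -0.98, -1.05 and -1.10) and highest on 7 and X, while the HepG2 libraries lie near 0 on every chromosome shown.

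Set beside the GM12878 libraries, whose CPM serve as a common reference in both ratios and so tie them together, the median log2 ratio on chromosome 20 was -0.17 for K562 and 0.93 for HepG2, on chromosome 2 it was -0.01 and 0.46, and on chromosome 14 -0.32 and 0.32. On X it was 0.23 for K562 and -0.04 for HepG2, and on chromosome 7 0.29 and -0.11. Over all 4778 genes the medians were 0 and 0.03. On chromosome 20 the HepG2 value lay the farther from 0, and on chromosome 14 the values lay equally far on either side of it.

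A step lay on chromosome 22 at BCR (chr22:23179704-23318037), the gene at which that chromosome is joined to ABL1 of chromosome 9 in K562; the division at BCR was chosen after the values were seen. Of the 41 tested genes that start before BCR, 30 (73.2%) were called higher in K562 and 2 (4.88%) in HepG2, and the median log2 change was 2.14. Of the 119 that start at BCR or after it, 14 (11.8%) were called higher in K562 and 41 (34.5%) in HepG2, and the median was -0.45; of the 10 from BCR to 25 megabases, 5 were called higher in HepG2 and none in K562, with a median of -1.04. Both K562 libraries showed the step, with medians of 1.53 and 1.83 before BCR and -0.60 and -0.42 from it on. RANBP1, a partner of the nuclear transport factor Ran, stood at 1205 and 733 against 134, 108 and 222 CPM, UBE2L3, a ubiquitin-conjugating enzyme, at 769.7 and 719.6 against 178, 192 and 215 CPM, CRKL, an adaptor that BCR-ABL1 phosphorylates, at 80.3 and 118 against 25.8, 23.4 and 26.1 CPM, and CDC45, of the replication helicase, at 207 and 204 against 7.75, 4.68 and 9.78 CPM. PRAME, given above among the cancer-testis genes, lies highest of them in the plot along chromosome 22. SERPIND1, heparin cofactor II, a plasma protein of liver, and GNAZ, a G protein subunit and the tested gene nearest before BCR, were the 2 called higher in HepG2 there. SERPIND1 stood at 457, 510.1 and 375 CPM and GNAZ at 64.6, 84.2 and 35.8 CPM in HepG2, and both had 0 reads in K562. Just after BCR, MIF, a cytokine, stood at 1044 and 1025 against 2462, 2246 and 2239 CPM, DDT, its relative next door, at 127 and 174 against 261, 295 and 303 CPM (called with K562 library 1 alone but not over the 5 libraries), and SMARCB1, of a chromatin remodelling complex, at 107 and 115 against 160.2, 206 and 137 CPM. BCR itself lay at 20.1 and 36.1 against 41.3, 65.5 and 71.7 CPM, log2 change -0.93 with an interval of -1.94 to 0.08; reads of the fusion cannot be told from those of BCR in gene counts. Beside GM12878, the 39 genes before BCR that could be set side by side had a median log2 ratio of 1.55 for K562 and 0.08 for HepG2, and the genes from BCR on -0.36 and -0.19.

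**Figure D4:**
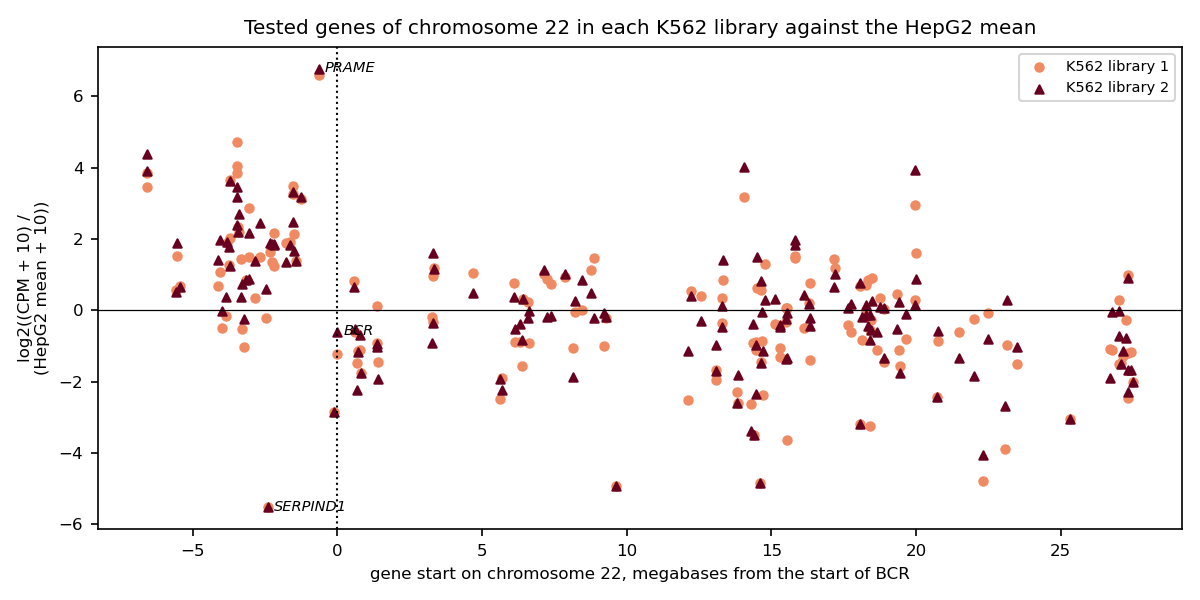
Tested genes of chromosome 22 by the distance of their start from that of BCR, in megabases (horizontal axis), with log2((CPM + 10)/(HepG2 mean CPM + 10)) in K562 library 1 (circles) and K562 library 2 (triangles) on the vertical axis. Points left of the dotted line lie mostly above 0 in both libraries, with medians of 1.53 and 1.83, and those right of it have medians of -0.60 and -0.42; PRAME and SERPIND1 are the extremes on the left.

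On the partner chromosome no such step was seen in the medians of all genes on either side of ABL1. No shorter stretch next to ABL1 was set apart, so a shift limited to it could be missed. Of the 51 tested genes of chromosome 9 that start at ABL1 (chr9:130713946-130887675) or after it, 14 were called higher in K562 and 10 in HepG2, at a median log2 change of -0.00, and of the 145 before it 30 and 43, with a median of -0.22. The median of the K562 libraries from ABL1 on was -0.04 and -0.07. ABL1, the kinase gene, stood at 80.3 and 112 against 33.6, 32.8 and 32.6 CPM, a call that was lost with K562 library 1 alone (log2 change 1.14). In gene counts reads of the fusion cannot be told from those of ABL1 either.

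The K562 libraries disagreed by more than the HepG2 libraries did. Among the 1599 genes with a mean of at least 100 CPM in K562, 216 (13.5%) differed at least 2-fold between them, 116 higher in library 1 and 100 higher in library 2. For pairs of HepG2 libraries it was 0.675% to 3.60% of 1779 genes. Of the 631 called genes at that level in K562, 95 were among the 216. K562 library 1 was the shallowest, at 141832 reads, so counting error has a part in these shares. Squared differences, in units of those expected from counting error alone, averaged 4.23 for the K562 pair. For the HepG2 pairs they averaged 1.48, 2.17 and 2.34. Of 25 tested genes of the amino acid and stress response, all 25 were higher in library 2, by a median log2 of 1.45. That list was written after the values were seen, so the count describes the genes chosen and is not a test. Among all tested genes 48.5% were higher in library 2. DDIT4, an inhibitor of the growth kinase mTOR, stood at 93.7 and 953 CPM, ASNS, asparagine synthetase, at 66.9 and 384 CPM, TRIB3, a pseudokinase, at 87 and 499 CPM, and PHGDH, the first enzyme of serine synthesis, at 33.5 and 233 CPM in libraries 1 and 2. Outside that list ACSM3, an acyl-CoA synthetase, stood at 40.2 and 825 CPM and ALDOC, an aldolase, at 40.2 and 572 CPM. Library 1 was higher in 21 of 26 chaperones, 26 of 31 proteasome genes and 31 of 44 splicing factors. HSPA8, the constitutive HSP70, stood at 2423 and 858 CPM, ODC1, of polyamine synthesis, at 930.4 and 237 CPM, ID1, an inhibitor of helix-loop-helix factors, at 228 and 29.6 CPM, and GAR1, a snoRNP protein, at 221 and 49.3 CPM. Library 2 was higher in 43 of 48 large-subunit and 27 of 32 small-subunit ribosomal proteins. The labels give no difference between the libraries but their number.

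**Figure D5:**
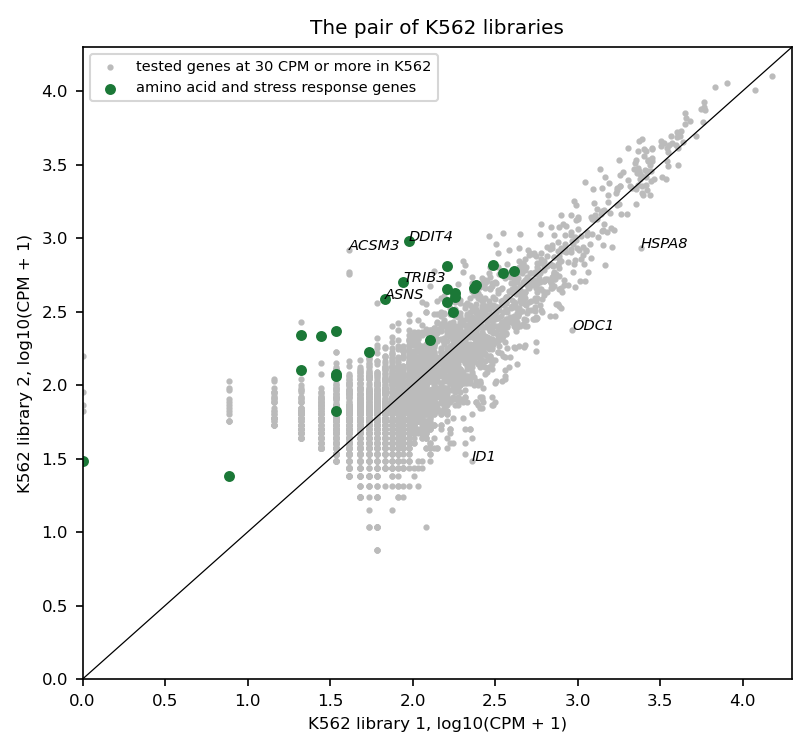
Level in K562 library 2 against K562 library 1, both as log10(CPM + 1), for tested genes with a mean of at least 30 CPM in K562 (grey) and the 25 tested amino acid and stress response genes (green), with the line of equality. All 25 green points, from a list written after the values were seen, lie above the line, among them DDIT4, TRIB3 and ASNS. HSPA8, ODC1 and ID1 lie below it.

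This touched the line comparison of single genes. The 8 called genes at which the K562 libraries differed most were SAT1, PMM1, HERPUD1, GDF15, NUDT16L1, PHGDH, NUDT8 and PCK2, all 8 called higher in HepG2. GDF15, a stress-induced cytokine, stood at 20.1 and 217 against 465, 398 and 463 CPM, and SAT1, which acetylates polyamines, at 6.69 and 105 against 258, 281 and 192 CPM. PCK2, the mitochondrial PEP carboxykinase, stood at 20.1 and 125 against 395, 431 and 355 CPM, so that both K562 libraries were low and library 1 by far the lower. HERPUD1, PMM1 and NUDT8 lost their calls without K562 library 1 (adjusted p = 0.262, 0.0363 with a log2 change of -0.91, and 0.13), and NUDT16L1 with K562 library 1 alone (adjusted p = 0.293); HERPUD1 also lost it without HepG2 library 1 or 3 (adjusted p = 0.127 and 0.179), and NUDT8 without HepG2 library 1 (adjusted p = 0.0789). ASNS, called higher in K562 at 66.9 and 384 against 41.3, 51.5 and 19.6 CPM, was lost with K562 library 1 alone (adjusted p = 0.333).

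Long reads can also show which transcript of a gene was read. Models that match only the end part of an annotated transcript held 14.2% and 15% of reads in the K562 libraries and 20.7%, 22.4% and 22.5% in the HepG2 libraries, and known models 47.7% and 47.8% against 41.6%, 37.9% and 38.9%. The part of this difference in the shifts below was not tested. Of 550 genes with enough reads of known transcripts in both lines, 8 were called for a shift in transcript use between the lines (1.45%), among them SLC39A4, ETFB, ACOT7, CENPX, METTL26, RPL14 and NUDC, by edgeR's quasi-likelihood test on transcripts within genes. In ETFB, of the electron transfer flavoprotein, transcript ETFB-201 made up 85.7% and 81.8% of the known-transcript reads in K562 and 20.1%, 24.2% and 25.9% in HepG2 (adjusted p = 0.00325). In SLC39A4, a zinc importer, SLC39A4-209 made up 81.3% and 68.2% in K562 and 7.27%, 6.67% and 0% in HepG2, where SLC39A4-202 held 56.4%, 60% and 57.6% and none in K562 (adjusted p = 0.000521). In CENPX (chr17:82018703-82022918), of the kinetochore, CENPX-202 made up 71.4% and 75% in K562 and 6.67%, 0% and 0% in HepG2, on few reads. The K562 libraries lay on the same side of all HepG2 libraries in each of these 3 genes. RPL14-201 made up 24.2% and 26.6% in K562 and 11.6%, 10.2% and 10.3% in HepG2 (adjusted p = 0.0301). The number called was 1, 2 and 3 without HepG2 libraries 1, 2 and 3, all among the 8. With either K562 library left out the set of called genes changed. With K562 library 1 alone most of the 8 were not called or had too few reads to be tested.

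Agreement between the lines can be stated for fewer genes than difference. For 558 of the 5029 tested genes (11.1%) the 95% interval of the log2 change lay within 1 on either side of 0, among them ACTB. Of the 3884 genes that had 10 reads or more in both lines, 1282 (33%) were called, against 47% of all tested genes.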

How the data were processed

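RNA of 2 K562 and 3 HepG2 libraries was read by nanopore direct RNA sequencing. The deposited tables hold raw counts of reads per transcript model for each library, made by the authors with TALON, per the file headers and the series' design text, and the submitters' processing notes name minimap2 and the build hg38; their versions are not given in the sources used here. Counts of all models of an annotated gene were summed, known or not, and models outside annotated genes were left out. Gene types and places came from the GRCh38 annotation by gene identifier. Genes were filtered with filterByExpr, scaled by TMM and tested with edgeR 4.0.16 (robust quasi-likelihood fit, R 4.3.3) over the 5 libraries, after the code was tested on simulated data. The genes described were, for each direction, the 15 called genes of largest log2 ratio after adding 10 CPM; for each list, up to 4 tested members of highest level and, in each direction, up to 3 that were called with the widest change; pairs of related genes; and the 8 called genes at which the K562 libraries differ most. Other genes named, the stress list and the divisions by chromosome were chosen after their values were seen. The members, lists and tests were chosen with earlier results of these data known. Transcript use was tested in genes with at least 20 known-transcript reads per line. Levels and calls beside a gene printed without a p rest on the same fit. Alternatives were other scalings, filters and tests (DESeq2 1.42.0), a fit with all 8 libraries, and leaving out each library; with 2 against 3 libraries an exact permutation test cannot go below p = 0.1. Results of some genes and of 1 list are not reported here.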

Additional observations from a re-analysis of the deposited data

Results flagged for a closer look

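Reads of transcript models outside annotated genes entered no comparison. They made up 0.704% and 0.677% of the reads of K562 libraries 1 and 2 and 0.798%, 0.82% and 0.767% of those of HepG2 libraries 1, 2 and 3, above the share that a count of 0 allows (3 reads of the library). The shares of both K562 libraries lay below those of all 3 HepG2 libraries; the difference was not tested.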

How the results depend on the processing

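The counts of 1024 genes higher in K562 and 1340 higher in HepG2 moved by no more than 1.5 times under size factors by RLE (946 and 1387), library totals (1302 and 1158), DESeq2 (708 and 1145), no filter (1323 and 1909), at least 10 reads in 2 libraries (898 and 1345), no genomic models (820 and 1080) and all 8 libraries in 1 fit (830 and 1275). A test against a 2-fold change called 11.2% of tested genes higher in K562, in place of 20.4%, and 937 genes higher in HepG2; known transcript models alone, with 1844 genes tested, gave 342 (18.5%) and 473 (25.7%). Leaving out each library gave 711 to 1052 genes higher in K562, lowest without K562 library 2, 1078 to 1500 higher in HepG2, and 1 to 10 genes called for transcript use. Deviations of same-numbered libraries from the mean of their line correlated at -0.02 and 0.03. The deviations of the 2 K562 libraries mirror each other, so these values cannot show whether the numbers pair the libraries. A replicate block over libraries 1 and 2 of each line gave 839 and 1124 genes, against 875 and 1130 for the same libraries without it. Of the genes named, ACSM3, not called in the comparison, was called higher in HepG2 with K562 library 1 alone (log2 change -1.66), and 2.80 without K562 library 1; the cause was not tested. The median of the first 25 megabases of chromosome 22 fell to 0.68 with no filter on reads, which adds genes of few reads. Depth limits the low end: 0 reads over the 2 K562 libraries allow 6.61 CPM, and the shallower K562 library held 141832 reads.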
